A study of Saccharomyces cerevisiae with 8 samples.

Results

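The 14 codons that encode alanine, serine or threonine were taken by the standard genetic code from a table of A-site pause scores with 61 sense codons. They are the 4 alanine codons (GCT, GCC, GCA and GCG), the 4 threonine codons (ACT, ACC, ACA and ACG) and the 6 serine codons. The serine codons lie in 2 boxes, TCT, TCC, TCA and TCG in one and AGT and AGC in the other. No codon was at 0, and all 14 had a value in each of the 8 libraries. No filter on low values was applied.

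The study profiled ribosomes in Saccharomyces cerevisiae after depletion of the elongation factor eEF3, to ask which step of elongation needs the factor and whether ribosomes stall at particular sites without it. The eEF3d strain (yCW35) lacks HEF3 (hef3::KanMX), carries YEF3 under the GAL1 promoter with a 3mAID degron tag, and expresses osTIR1 from the ADH1 promoter at HO. The WT strain was BY4741, with none of these alleles. Both were grown in galactose and raffinose and then moved to glucose, where GAL1 is off, and depletion also used auxin. With cycloheximide and tigecycline (CHX + TIG), the 21 nt ribosome protected fragments (RPFs) come from ribosomes with an empty A site, waiting for a tRNA. With cycloheximide and anisomycin (CHX + ANS), the 28 nt RPFs come from ribosomes before translocation. There were 2 libraries for each strain and inhibitor pair.

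Each pause score divides the footprint density at a codon (over 3 nt) by that of its coding sequence, so 1 is the average level. The values keep no read numbers, which leaves the depth unknown, and the depletion of YEF3 cannot be checked in a table of codons. WT replicate 1 in CHX + TIG and both WT libraries in CHX + ANS came from an earlier study. In CHX + ANS, strain and library origin therefore cannot be told apart. The study calls the libraries of a group biological replicates, and the p-values rest on the spread between them.

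The third base of a codon is read by the first base of the anticodon, which tolerates some mismatches (wobble). In yeast, the A at that place in the tRNAs for alanine, serine and threonine is converted to inosine, which reads T-ending and C-ending codons. Purine-ending codons are read by other tRNAs, and a tRNA with U there can pair with both A and G. eEF3 is a fungal ATPase that acts with the translocation factor eEF2 and helps the tRNA leave the E site.

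The reference annotation (R64 assembly, RefSeq) held 51 nuclear tRNA genes for alanine, serine and threonine, of which 2 were of undetermined specificity and 49 were used. They fell into 9 anticodon species. For T-ending codons there were 11 genes each with the anticodons AGC (tRNA-Ala), AGA (tRNA-Ser) and AGT (tRNA-Thr). For A-ending codons there were 5 genes with TGC (tRNA-Ala), 3 with TGA (tRNA-Ser) and 4 with TGT (tRNA-Thr). TCG and ACG each had 1 gene with the complementary anticodon, AGC had 2, and GCG had none. Both genes of undetermined specificity were tRNA-Ser with the anticodon GCT, complementary to the codon AGC, and were left out of its count. In all, 9 of the 14 codons had a complementary anticodon, and 5 did not, which were the C-ending codons of the 4-codon boxes, GCG and AGT. The mature sequences of 7 species are shown, without introns or the added CCA end, because they pair with the purine-ending codons and AGC, whose ratios were compared between the strains, and with GCT, the codon with the largest 21 nt change. The capitals mark the anticodon, written as DNA.
tRNA-Ala, anticodon AGC, for GCT (chrIV:410379-410451, plus strand): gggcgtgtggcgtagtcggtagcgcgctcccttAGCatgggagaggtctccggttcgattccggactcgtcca
tRNA-Ala, anticodon TGC, for GCA (chrI:166267-166339, plus strand): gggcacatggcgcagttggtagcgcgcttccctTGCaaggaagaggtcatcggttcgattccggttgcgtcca
tRNA-Ser, anticodon TGA, for TCA (chrV:288443-288524, minus strand): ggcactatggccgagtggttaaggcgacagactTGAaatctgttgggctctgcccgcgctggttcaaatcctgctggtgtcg
tRNA-Ser, anticodon CGA, for TCG (chrIII:227942-228042, plus strand, 2 exons): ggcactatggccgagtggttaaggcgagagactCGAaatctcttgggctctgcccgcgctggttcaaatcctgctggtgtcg
tRNA-Ser, anticodon GCT, for AGC (chrVI:191513-191613, minus strand, 2 exons): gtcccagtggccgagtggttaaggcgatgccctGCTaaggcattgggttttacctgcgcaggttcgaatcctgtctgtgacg
tRNA-Thr, anticodon TGT, for ACA (chrVII:661749-661820, plus strand): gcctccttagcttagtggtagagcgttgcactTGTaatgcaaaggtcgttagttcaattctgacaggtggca
tRNA-Thr, anticodon CGT, for ACG (chrXI:46735-46806, minus strand): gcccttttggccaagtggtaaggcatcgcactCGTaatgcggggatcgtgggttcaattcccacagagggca
The serine tRNAs for TCA and TCG were near copies, different at 3 of 82 positions, whereas the threonine tRNAs for ACA and ACG differed at 21 of 72. The serine tRNA for AGC differed from the one for TCG at 25 of 82 positions.

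In 21 nt RPFs, the G-ending codon stood highest in each 4-codon box and a T-ending or C-ending codon lowest in WT cells, and these differences were smaller in eEF3d cells. By limma's test over all 61 codons, 8 of the 14 codons changed at an adjusted p under 0.05. The codons GCT, GCC, ACT and ACC were higher in eEF3d and GCG, TCG, ACA and ACG lower. The shares, 28.6% of the 14 in each direction, were close to those over all 61 codons (34.4% higher and 27.9% lower). Both eEF3d libraries lay above or below both WT libraries at 11 of the 14 codons, 7 higher and 4 lower, against 82% of all 61 codons. These p-values rest on 1 SD common to all codons (SE of each change 0.21). Leaving out either WT library, which leaves 1 in that group, removed every limma call, among the 14 codons and among all 61. Every one of the 8 changes kept its direction. GCC, ACT and TCG were also lost without eEF3d replicate 1 (adjusted p = 0.0614, 0.105 and 0.143), and ACA without eEF3d replicate 2 (adjusted p = 0.0714).

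**Figure D1:**
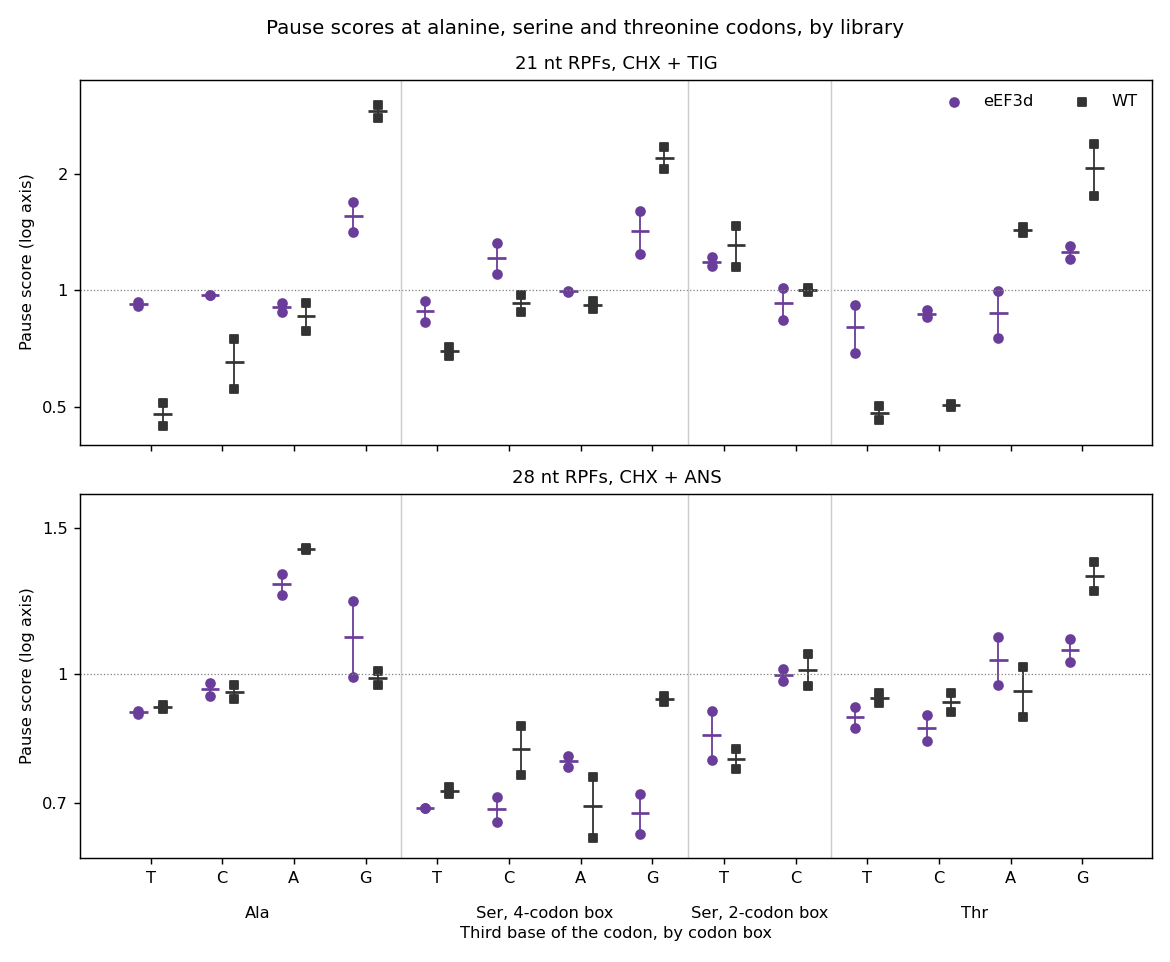
Pause scores of the 14 codons in each library (points), with the mean of the 2 replicates (dash) for eEF3d and WT, on log axes, by the third base within each box, in 21 nt RPFs (top) and 28 nt RPFs (bottom, on a narrower scale). In 21 nt RPFs the G-ending codons averaged between 1.25 and 1.55 in eEF3d and between 2.07 and 2.90 in WT.

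Among the alanine codons, GCG had the highest 21 nt pause score in all 4 libraries, with 1.42 and 1.69 in eEF3d, against 2.78 and 3.02 in WT. GCT had 0.910 and 0.932 in eEF3d, against 0.446 and 0.513 in WT. The WT libraries were thus at the extremes and the eEF3d libraries between them, with no overlap at either codon. On the log2 scale, GCG fell by 0.90 (SE 0.21, limma adjusted p = 0.000154), and GCT rose by 0.95 (adjusted p = 0.000111). GCC, which shares the inosine tRNA with GCT, had 0.976 and 0.973 in eEF3d, against 0.557 and 0.751 in WT (log2 change 0.59, adjusted p = 0.0117). Without WT replicate 1 the change at GCC was 0.38 (adjusted p = 0.156), within a range of 0.000214 to 0.169 over its 11 alternatives. GCA overlapped between the strains, with 0.928 and 0.882 in eEF3d, against 0.786 and 0.928 in WT. From highest to lowest alanine codon the ratio was 1.56 and 1.92 in the eEF3d libraries, against 6.25 and 5.88 in the WT libraries.

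Among the threonine codons, both pyrimidine-ending codons were at about the same low level in WT and both purine-ending codons were above 1. ACT had 0.917 and 0.688 in eEF3d, against 0.462 and 0.503 in WT, and ACC had 0.888 and 0.854 in eEF3d, against 0.509 and 0.501 in WT. ACT rose by 0.72 on the log2 scale (adjusted p = 0.00233) and ACC by 0.79 (adjusted p = 0.000902). At both codons the eEF3d libraries lay above the WT libraries, and the gap between the eEF3d replicates at ACT was the widest of the 14 codons in that strain. ACA had 0.994 and 0.753 in eEF3d, against 1.46 and 1.40 in WT, and ACG had 1.30 and 1.21 in eEF3d, against 2.38 and 1.76 in WT. ACA fell by 0.72 (adjusted p = 0.00232) and ACG by 0.71 (adjusted p = 0.00269). ACA was the codon of the 14 whose 21 nt rank among all 61 differed most, at rank 53 in eEF3d and 19 in WT. The other A-ending codons of 4-codon boxes, GCA and TCA, had WT means of 0.857 and 0.918 and passed no test between the strains.

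Of the 4 serine codons of the TCN box (N for any base), 1 passed the test. TCG had 1.24 and 1.60 in eEF3d, against 2.34 and 2.05 in WT, and fell by 0.63 on the log2 scale (adjusted p = 0.00692). TCT had 0.941 and 0.831 in eEF3d, against 0.679 and 0.713 in WT, and TCC had 1.10 and 1.32 in eEF3d, against 0.972 and 0.879 in WT. Both codons were higher in each eEF3d library than in each WT library, but their changes of 0.35 (adjusted p = 0.14) and 0.38 (adjusted p = 0.0998) did not pass the test. TCA was near 1 in all libraries, with 0.992 and 0.998 in eEF3d, against 0.940 and 0.896 in WT.

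AGT and AGC, the serine codons of the 2-codon box, overlapped between the strains. AGT had 1.15 and 1.22 in eEF3d, against 1.47 and 1.15 in WT (log2 change -0.13, 95% interval -0.54 to 0.28, adjusted p = 0.581). AGC had 1.01 and 0.841 in eEF3d, against 1.02 and 0.990 in WT (log2 change -0.12, 95% interval -0.53 to 0.29, adjusted p = 0.617). Changes smaller than these intervals allow were not detectable here.

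Because pause scores are relative within a library, another scaling shifts all codons together. The median change over the 61 codons in 21 nt RPFs was 0.17 on the log2 scale as deposited, 0.02 after centering every library on its median and 0.45 after dividing it by its mean. Of the 14 codons, 4 were called higher and 4 lower as deposited, 3 and 4 after centering, and 6 and 1 after division by the mean. Over all 61 codons these counts were 21 and 17, 12 and 20, and 30 and 6. GCC was not called after centering (adjusted p = 0.0953), nor TCG, ACA and ACG after division by the mean (adjusted p = 0.13, 0.0622 and 0.071). None of the 8 called codons changed sign, whereas GCA and TCA turned negative after centering and AGT and AGC turned positive after division by the mean. Ratios between codons of 1 library do not depend on this scaling, so the third-base pattern was also tested on such ratios.

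The third-base contrasts compared G-ending with A-ending codons, C-ending with T-ending codons, and, in 4-codon boxes, the geometric mean of the purine-ending with that of the pyrimidine-ending codons. For serine the AGY box (Y for T or C) was also compared with the TCN box, by geometric means. Of the 40 such contrasts in the genetic code, 11 belonged to the 14 codons. In 21 nt RPFs, 9 of the 11 differed from 0 in WT (limma, 75% of the 40) and 4 of the 11 in eEF3d (27.5% of the 40). Between the strains, 5 of the 11 changed, all toward smaller purine or G preferences in eEF3d (45% of the 40 changed in either direction). Contrasts of one box share codons and are not independent. These p-values also rest on 1 SD common to the 40 contrasts. With no moderation, 0 of the 11 changes were called, and 0 of all 40.

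The ratio of purine-ending to pyrimidine-ending threonine codons in 21 nt RPFs was 1.26 and 1.24 in eEF3d, against 3.84 and 3.13 in WT. It fell by 1.47 on the log2 scale (SE 0.21, limma adjusted p = 2.04e-08), the widest change of the 11 contrasts in this class. The same ratio for alanine was 1.22 and 1.28 in eEF3d, against 2.97 and 2.70 in WT (log2 change -1.18, adjusted p = 4.83e-06), and for TCN serine 1.09 and 1.21 in eEF3d, against 1.83 and 1.71 in WT (-0.62, adjusted p = 0.00994). The serine call was lost without WT replicate 1 (adjusted p = 0.0812) and without eEF3d replicate 1 (adjusted p = 0.0779), within a range of 0.00103 to 0.102 over its 10 alternatives. With no moderation, the adjusted p was 0.101 for both the threonine and the alanine ratio. All 3 boxes thus had a purine excess in WT that was smaller in both eEF3d libraries, and in eEF3d none of the 3 ratios passed the test against 0.

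The G to A contrast within purines changed in 2 of the 3 boxes. GCG over GCA was 1.53 and 1.92 in eEF3d, against 3.54 and 3.25 in WT (log2 change -0.99, adjusted p = 7.63e-05, and 0.102 with no moderation). TCG over TCA was 1.25 and 1.61 in eEF3d, against 2.49 and 2.29 in WT (-0.75, adjusted p = 0.00185), and this call was lost without eEF3d replicate 1 (adjusted p = 0.07, and 0.00165 to 0.123 over its 10 alternatives). ACG over ACA was 1.31 and 1.60 in eEF3d, against 1.64 and 1.25 in WT, with overlapping libraries and a change of 0.02 (95% interval -0.41 to 0.44, adjusted p = 0.949). ACG and ACA thus fell by like amounts, and each of these G to A ratios stayed above 0 on the log2 scale in eEF3d (0.78 for alanine, 0.51 for serine and 0.53 for threonine, adjusted p = 1.76e-05, 0.00579 and 0.00436). Proline, the remaining 4-codon box with second base C, had a change of -2.04 in CCG over CCA in the same fit (adjusted p = 2.34e-13). Its other contrasts differed from those of the 3 boxes. The purine to pyrimidine ratio of proline changed by -0.40, which did not pass the test (adjusted p = 0.116). CCC over CCT changed by -0.73 and passed (adjusted p = 0.00224).

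The C to T contrasts were smaller. GCC over GCT was 1.07 and 1.04 in eEF3d, against 1.25 and 1.46 in WT, and TCC over TCT was 1.17 and 1.59 in eEF3d, against 1.43 and 1.23 in WT. ACC over ACT was 0.969 and 1.24 in eEF3d, against 1.10 and 0.995 in WT. None of these changed between the strains by the test (adjusted p = 0.149, 0.927 and 0.842). In the 2-codon box the order ran the other way, since AGC over AGT was 0.878 and 0.689 in eEF3d, against 0.691 and 0.859 in WT. AGC, the codon with a complementary tRNA, was thus below AGT in all 4 libraries, with a log2 ratio of -0.36 in eEF3d (adjusted p = 0.06) and -0.38 in WT (adjusted p = 0.0207), and a change of 0.01 between them (adjusted p = 0.949).

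**Figure D2:**
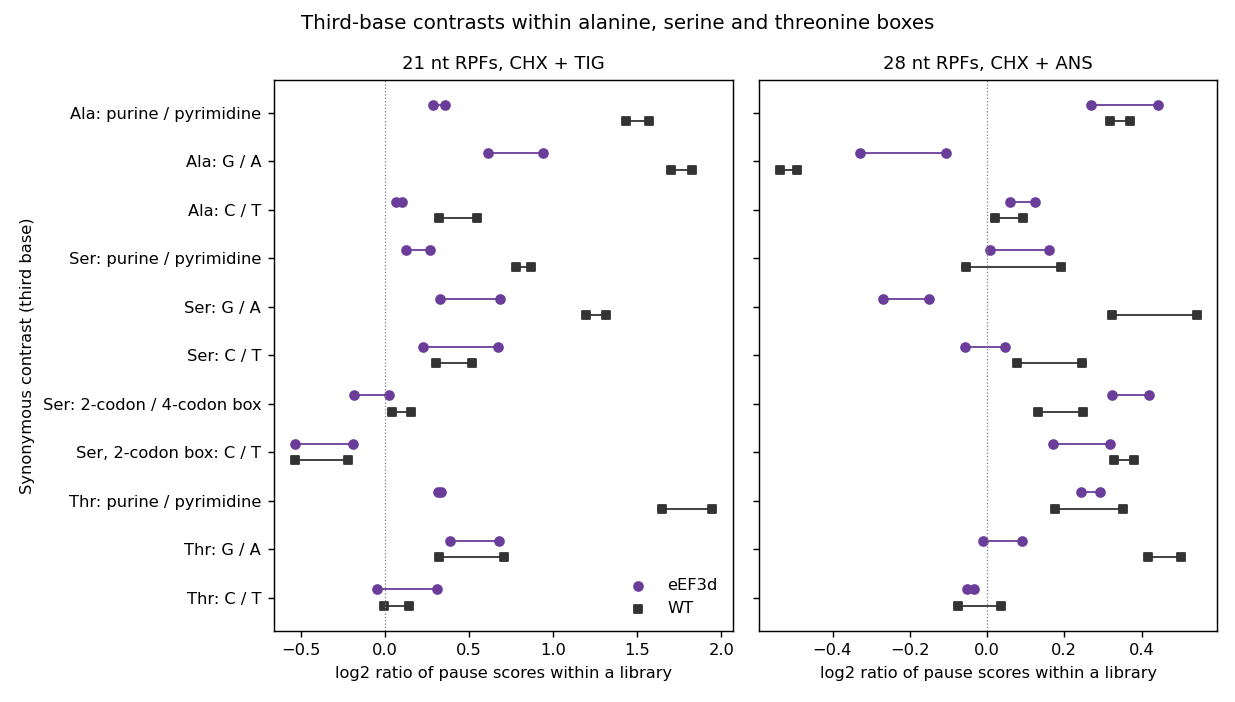
Third-base contrasts as log2 ratios of pause scores within each library (points, joined for the 2 replicates) for eEF3d and WT, in 21 nt RPFs (left) and 28 nt RPFs (right, on a narrower scale). The purine to pyrimidine ratio of threonine codons averaged 0.32 in eEF3d and 1.79 in WT in 21 nt RPFs, and 0.27 in eEF3d and 0.26 in WT in 28 nt RPFs.

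In 28 nt RPFs, which report on ribosomes before translocation, the 14 codons were close between the strains. By limma's test, 0 of the 14 were higher in eEF3d, against 23% of all 61 codons, and 2 (14.3%) were lower, against 26.2%. The same test at an unadjusted p under 0.05 passed 37 of the 61 codons. Both eEF3d libraries lay above or below both WT libraries at 9 of the 14 codons, 1 higher and 8 lower, against 80.3% of all 61. The median size of the change was 0.11 on the log2 scale for the 14 codons and 0.31 for the other 47, whereas in 21 nt RPFs the medians were 0.61 and 0.53. The median change over all codons was 0.03 as deposited, -0.06 after centering on the median and 0.16 after division by the mean. After centering, 0 of the 14 were called higher and 6 lower, against 11 and 23 of all 61. After division by the mean, 2 were called higher and 1 lower, against 26 and 14 of all 61.

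TCG was the codon of the 14 that changed most in 28 nt RPFs, with 0.718 and 0.642 in eEF3d, against 0.925 and 0.941 in WT. It fell by 0.46 on the log2 scale (SE 0.07, limma adjusted p = 0.00311), and ranked 60 of 61 codons in eEF3d and 34 in WT. The call was lost under a replicate block (adjusted p = 0.0504) and with no moderation (adjusted p = 0.081), the highest of its 10 alternatives, of which the lowest was 2.56e-06. ACG had 1.10 and 1.03 in eEF3d, against 1.26 and 1.36 in WT, and fell by 0.29 (adjusted p = 0.0131, with 0.0784 after division by the mean, 0.0513 without WT replicate 2, 0.103 under the replicate block, and 0.00168 to 0.111 over its 10 alternatives). Any link of these changes to tRNA genes was not tested. TCG and ACG are the G-ending codons of the 14 that have a tRNA gene of their own. GCG, which has none, had 1.22 and 0.991 in eEF3d, against 0.971 and 1.01 in WT, with overlapping libraries and the widest replicate gap of all 61 codons in eEF3d. Its change of 0.15 (adjusted p = 0.255) was 0.31 without eEF3d replicate 2 (adjusted p = 0.0052) and 0.00 without eEF3d replicate 1 (adjusted p = 0.987).

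Serine codons of the TCN box were low in 28 nt RPFs, most of all in eEF3d, while the means of the alanine and threonine boxes were near 1. The geometric mean of the 4 TCN codons was 0.715 and 0.702 in the eEF3d libraries, against 0.781 and 0.787 in the WT libraries. The two-sided exact permutation p was 0.333, the smallest that 2 against 2 libraries allow. Division by the library mean moves every 28 nt change up by 0.13 on the log2 scale. The gap between the strains therefore depends on the scaling. For alanine it was 1.09 and 1.01 in eEF3d, against 1.05 and 1.05 in WT, and for threonine 0.999 and 0.921 in eEF3d, against 0.995 and 1.04 in WT. In eEF3d all 4 TCN codons ranked from 56 to 60 of 61, against ranks from 34 to 57 in WT. TCC had 0.663 and 0.712 in eEF3d, against 0.867 and 0.756 in WT (log2 change -0.24, adjusted p = 0.0568), and TCT had 0.690 and 0.689 in eEF3d, against 0.730 and 0.717 in WT. TCA was the exception, with 0.797 and 0.773 in eEF3d, against 0.635 and 0.751 in WT, a change of 0.18 that did not pass the test (adjusted p = 0.134). Both TCC and TCA depended on the WT libraries. Without WT replicate 2 the change was -0.34 at TCC (adjusted p = 0.00562) and 0.31 at TCA (adjusted p = 0.0107), and without WT replicate 1 it was -0.14 at TCC (adjusted p = 0.305) and 0.06 at TCA (adjusted p = 0.639). TCC was also called without eEF3d replicate 2 (-0.29, adjusted p = 0.00838).

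The 2 serine boxes differed before translocation. The ratio of the AGY box to the TCN box was 1.34 and 1.25 in eEF3d, against 1.19 and 1.10 in WT, above 0 on the log2 scale in both strains (limma adjusted p = 4.72e-06 in eEF3d and 0.0135 in WT). The change of 0.18 between the strains did not pass the test (adjusted p = 0.131). It passed with equal expected SDs for the contrasts (limma adjusted p = 0.0228), an alternative added after seeing the data. AGC had 1.02 and 0.982 in eEF3d, against 1.06 and 0.966 in WT, and AGT had 0.902 and 0.788 in eEF3d, against 0.812 and 0.769 in WT. AGC over AGT was 1.13 and 1.25 in eEF3d, against 1.30 and 1.26 in WT, above 1 in all 4 libraries, whereas it was below 1 in all 4 libraries of 21 nt RPFs.

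GCA was the highest of the 14 codons before translocation, with 1.32 and 1.25 in eEF3d, against 1.41 and 1.42 in WT, which placed it 5 of 61 in eEF3d and 13 in WT. GCT and GCC were alike in the strains, with 0.896 and 0.903 for GCT in eEF3d, against 0.909 and 0.919 in WT, and 0.977 and 0.941 for GCC in eEF3d, against 0.969 and 0.932 in WT. The 95% intervals of their changes were -0.15 to 0.10 and -0.13 to 0.15 on the log2 scale. As deposited, the threonine codons ACT and ACC were slightly lower in each eEF3d library than in each WT library. ACT had 0.913 and 0.862 in eEF3d, against 0.924 and 0.948 in WT, and ACC had 0.892 and 0.832 in eEF3d, against 0.948 and 0.900 in WT (adjusted p = 0.279 and 0.216). Both were called lower after centering (limma adjusted p = 0.0497 and 0.041), and both changes were positive after division by the mean. ACA overlapped, with 1.11 and 0.971 in eEF3d, against 0.889 and 1.02 in WT (log2 change 0.12, adjusted p = 0.298, and 0.22 with adjusted p = 0.0441 without eEF3d replicate 2).

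The third-base contrasts of 28 nt RPFs differed from 0 at 6 of the 11 in eEF3d (50% of the 40) and at 8 of the 11 in WT (75% of the 40), and 3 of the 11 changed between the strains (35% of the 40). TCG over TCA was 0.900 and 0.830 in eEF3d, against 1.46 and 1.25 in WT (log2 change -0.64, adjusted p = 5.89e-08), so that the order of the 2 codons was opposite in the strains. ACG over ACA was 0.993 and 1.07 in eEF3d, against 1.42 and 1.34 in WT (-0.42, adjusted p = 0.00037). These p-values rest on 1 SD common to the 40 contrasts, and with no moderation both were 0.183, the highest of their 9 alternatives (the lowest were 1.85e-08 and 3.56e-05). GCG over GCA was 0.928 and 0.796 in eEF3d, against 0.689 and 0.711 in WT (0.30, adjusted p = 0.0102). This last call was lost without WT replicate 1 (0.27, adjusted p = 0.0639) and without eEF3d replicate 1 (0.18, adjusted p = 0.341), within a range of 0.013 to 0.341 over its 9 alternatives. GCG was thus below GCA in all 4 libraries of 28 nt RPFs and above it in all 4 libraries of 21 nt RPFs. The purine to pyrimidine ratios were close between the strains, at 1.36 and 1.21 in eEF3d, against 1.25 and 1.29 in WT for alanine, and 1.23 and 1.18 in eEF3d, against 1.13 and 1.28 in WT for threonine. Their changes had 95% intervals of -0.18 to 0.21 and -0.19 to 0.20.

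An interaction term over all 8 libraries compared the classes, as the change in 28 nt RPFs minus that in 21 nt RPFs. The 21 nt values came only from CHX + TIG and the 28 nt values only from CHX + ANS. Footprint class and inhibitor pair therefore cannot be told apart. It passed at 7 of the 14 codons, against 50.8% of all 61. GCG (1.06, limma adjusted p = 0.000702) and ACA (0.85, adjusted p = 0.00444) had a positive difference. GCT (-0.97, adjusted p = 0.000702), ACC (-0.89, adjusted p = 0.000874), ACT (-0.80, adjusted p = 0.00499), TCC (-0.62, adjusted p = 0.016) and GCC (-0.58, adjusted p = 0.0289) had a negative one. The term held in 7 of 16 alternatives for GCC and in 11 of 16 for TCC, and ACA and ACT were not called without WT replicate 1 of CHX + TIG (adjusted p = 0.0501 each). TCG, lower in eEF3d in both classes, had a difference of 0.17 (adjusted p = 0.5), and ACG had 0.41 (adjusted p = 0.111). Among the 11 contrasts the term passed at 4 (40% of the 40), which were the purine to pyrimidine ratios of threonine (1.47, adjusted p = 0.000276), alanine (1.19, adjusted p = 0.000501) and serine (0.64, adjusted p = 0.0206) and GCG over GCA (1.28, adjusted p = 0.00059). The serine ratio held in 10 of its 15 alternatives. For TCG over TCA the difference was 0.11 (adjusted p = 0.69).

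**Figure D3:**
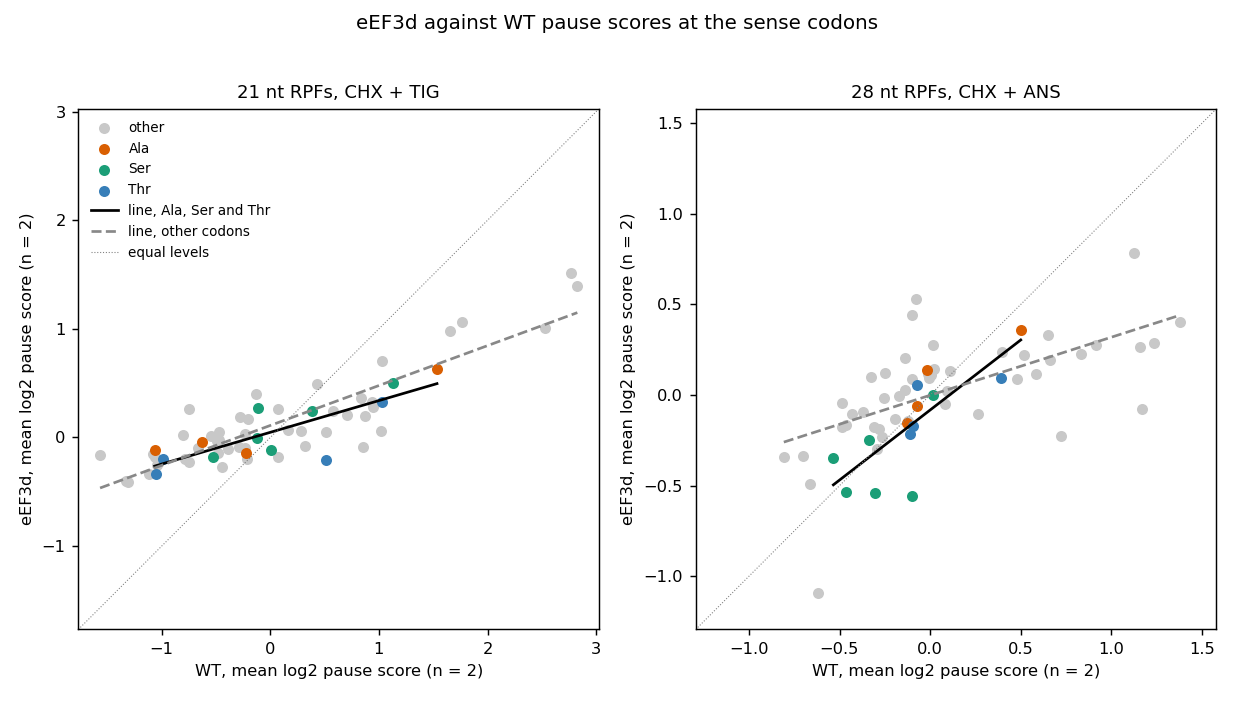
Mean log2 pause score in eEF3d against that in WT for the 14 alanine, serine and threonine codons (coloured) and the 47 other sense codons (grey), in 21 nt RPFs (left) and 28 nt RPFs (right), with least squares lines for both sets and the line of equal levels. The slope over the 14 codons was 0.29 in 21 nt RPFs and 0.77 in 28 nt RPFs, and over the other 47 it was 0.37 and 0.32.

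The spread over the 14 codons was narrower in both eEF3d libraries than in both WT libraries in 21 nt RPFs, and overlapped in 28 nt RPFs. The SD of their log2 pause scores in 21 nt RPFs was 0.21 and 0.40 in eEF3d, against 0.90 and 0.78 in WT, a ratio of means of 0.362. In 28 nt RPFs it was 0.30 and 0.26 in eEF3d, against 0.29 and 0.29 in WT, a ratio of 0.969. The two-sided exact permutation p was 0.333 in 21 nt RPFs, the smallest that 2 against 2 libraries allow, and 1 in 28 nt RPFs. The slope of eEF3d on WT log2 pause scores over the 14 codons ranged from 0.22 to 0.37 over the 4 pairs of libraries in 21 nt RPFs and from 0.68 to 0.82 in 28 nt RPFs.

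The other 47 codons had an SD in 28 nt RPFs of 0.32 and 0.29 in eEF3d, against 0.58 and 0.55 in WT. The SD of the 14 codons divided by that of the other 47 was 0.945 and 0.911 in the eEF3d libraries, against 0.493 and 0.528 in the WT libraries (exact permutation p = 0.333, the smallest possible). The 14 codons thus had about as wide a spread as the rest in eEF3d, and a narrower one in WT. Within each of the 4-codon boxes, the SD in 28 nt RPFs was below that of WT in both eEF3d libraries, with 0.26 and 0.21 in eEF3d, against 0.29 and 0.29 in WT for alanine. For TCN serine it was 0.11 and 0.11 in eEF3d, against 0.25 and 0.18 in WT, and for threonine 0.17 and 0.15 in eEF3d, against 0.23 and 0.27 in WT. Over the 4 TCN codons the slope was -0.36, with a range over the 4 pairs from -0.44 to 0.05. The same slope was 0.72 for alanine and 0.46 for threonine. The slope of WT replicate 2 on WT replicate 1 was itself 0.48 for TCN serine, against 1.01 for alanine and 1.05 for threonine.

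**Figure D4:**
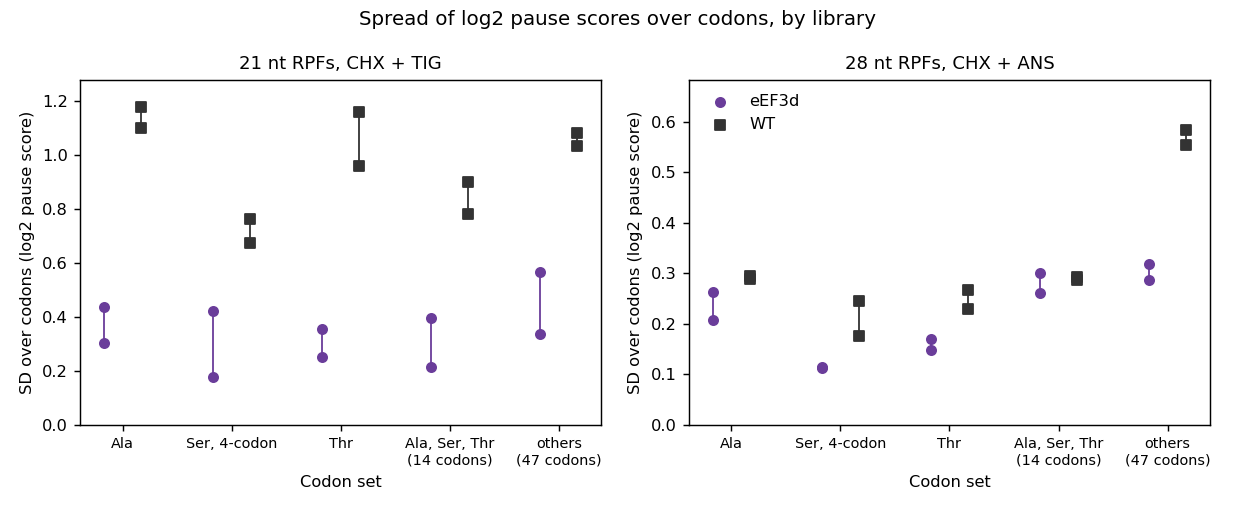
SD of log2 pause scores over the codons of each set, 1 point per library, for eEF3d and WT in 21 nt RPFs (left) and 28 nt RPFs (right, on a narrower scale). Over the 14 codons the libraries were at 0.21 and 0.40 in eEF3d, against 0.90 and 0.78 in WT in 21 nt RPFs, and between 0.26 and 0.30 in both strains in 28 nt RPFs.

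The 14 codons made up 20.4% of the codons in 6002 nuclear coding sequences of the reference. TCT was the most frequent, with 23.4 per 1000 codons, and GCG the least, with 6.20 per 1000, followed by ACG (8.18) and TCG (8.73). The G-ending codons, highest in 21 nt RPFs, were thus the rarest of the 14. Across the 14 codons, Pearson's r between log2 frequency and log2 pause score was -0.77 in eEF3d and -0.72 in WT in 21 nt RPFs, and -0.26 in eEF3d and -0.42 in WT in 28 nt RPFs. Over all 61 codons it was -0.54 in eEF3d and -0.69 in WT in 21 nt RPFs, where the order of the strains was opposite, and -0.13 in eEF3d and -0.49 in WT in 28 nt RPFs. These correlations describe codons of the same libraries, which are not independent replicates, and have no p.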

How the data were processed

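After trimming, the authors discarded reads of ribosomal and other non-coding RNA, aligned uniquely mapping ones by STAR to R64 (sacCer3) and assigned footprints to the A site. The submitters' processing notes also name CASAVA 1.8. The authors deposited 1 table of pause scores, each a ratio of densities, with a column per library. The 14 codons, contrasts and tests were chosen with earlier results of these data known.

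Log2 pause scores were fitted for all 61 codons in each footprint class with limma 3.58.1 (R 4.3.3), and for 40 third-base contrasts, with Benjamini-Hochberg adjustment over 61 or 40 and a threshold of 0.05. Strain by class was an interaction term. The SD over codons was compared by a two-sided exact permutation test. All 14 codons were named. The limma fits were first tested on simulated tables. Replicate numbers come from the labels, with no stated pairing. tRNA genes and codon frequencies came from the RefSeq annotation of R64. All 51 tRNA anticodons read from the anticodon arm fitted the amino acid, and 16 of 16 annotated ones, all of tRNA-Ala, were equal. Serine and threonine tRNA genes had no annotated anticodon to compare. Python 3.11, numpy 2.4.6, pandas 2.3.3, scipy 1.17.1 and matplotlib 3.10.9 were used. Alternatives were a replicate block, a mean-variance trend, no moderation, a pseudocount of 0.1, other scalings, weights by class and leaving out each library.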

Additional observations from a re-analysis of the deposited data

Results flagged for a closer look

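The change between eEF3d and WT differed between the footprint classes, by the interaction test over all 8 libraries, at 7 of the 14 codons and 4 of the 11 contrasts. On the log2 scale, the change in 28 nt RPFs minus the change in 21 nt RPFs was 1.06 at GCG (limma adjusted p = 0.000702), 0.85 at ACA (0.00444), -0.97 at GCT (0.000702), -0.89 at ACC (0.000874), -0.80 at ACT (0.00499), -0.62 at TCC (0.016) and -0.58 at GCC (0.0289). Among the contrasts it was 1.47 for the purine to pyrimidine ratio of threonine, 1.19 for that of alanine, 0.64 for that of TCN serine and 1.28 for GCG over GCA. Of the 4 WT libraries, 3 came from an earlier study.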

How the results depend on the processing

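Of the 14 codons, 8 were called in 21 nt RPFs, against 38 of all 61. With no moderation 0 were called, and 0 of all 61 (17 at an unadjusted p under 0.05). Fewer were called whenever 1 library was left out, among the 14 and among all 61. In 28 nt RPFs, 2 were called, against 30 of all 61. Under the replicate block 0 were called, against 19 of 61 (29 at an unadjusted p under 0.05). With no moderation 0 were called, against 12 of 61 (27 at an unadjusted p under 0.05). After centering on the median 6 were called, against 34 of 61. The class difference was called at 7 codons, against 31 of all 61, and with no moderation at 3, against 13 of 61. Leaving out 1 library moved these counts in both directions, among the 14 and among all 61. Among the 14, the fewest were called without WT replicate 1 of CHX + TIG. Of the 11 contrasts, 5 were called in 21 nt RPFs, against 18 of all 40. With no moderation 0 were called, and 0 of all 40 (16 at an unadjusted p under 0.05). With 1 library left out, the fewest were called without eEF3d replicate 1, among the 11 and among all 40. In 28 nt RPFs 3 of the 11 were called, against 14 of all 40. With no moderation this was 0, against 1 of 40 (10 at an unadjusted p under 0.05). The call of GCG over GCA in 28 nt RPFs held in 5 of its 9 alternatives. The class difference of the contrasts was called at 4 of the 11, against 16 of all 40. Leaving out 1 library moved both counts in both directions. The ratio of SDs over the 14 codons was 0.883 in 28 nt RPFs for pause scores as deposited rather than their log2, and 0.899 to 1.04 when 1 library was left out. In 21 nt RPFs it was 0.253 to 0.470. No called codon or contrast changed sign under any alternative run, and the causes of the lost calls were not tested.

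The replicate block left 8 codons called in 21 nt RPFs, 5 for the class difference, and 5 and 3 contrasts in 21 nt and 28 nt RPFs. Same-numbered libraries deviated together with r of -0.17 in 21 nt RPFs and -0.03 in 28 nt RPFs over 61 codons, so the numbers were not taken as pairs. With the numbers crossed, an alternative chosen after seeing the data, 8 codons and 5 contrasts were called in 21 nt RPFs. Equal expected SDs for the contrasts, and the interaction term on the contrasts, were also added after seeing the data. Depth could not be used, since ratios keep no read numbers.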
